A study of Mus musculus with 12 samples.

Results

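The clustered histone genes are the 62 genes whose symbol begins with Hist1h, Hist2h, Hist3h or Hist4h in both deposited tables, of 23186 genes listed in either table. They were chosen by name alone. By class they are 6 linker histone H1 genes, 16 H2A, 18 H2B, 10 H3 and 12 H4 genes. The Hist1 cluster on mouse chromosome 13 holds 53 of them, Hist2 holds 5, Hist3 holds 3 and Hist4 holds 1. The row named Hist2h2bb carries the identifier of a non-coding gene in the GENCODE M21 annotation.

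RNA was measured in 12 libraries of mouse embryonic fibroblasts taken at embryonic day 13.5 to 14.5, primary cells that were grown in pyruvate-free medium. All cells were homozygous for an inducible allele and had been infected with adenovirus, and RNA was collected 4 days later. Nrf2 D29H cells carried LSL-Nrf2D29H and received adenoviral Cre, which switches on the mutant form of NRF2, the transcription factor of antioxidant and detoxification genes. Nrf2 KO cells carried the same allele, received empty adenovirus and are described in the study design as functionally knockout for Nrf2. Keap1 R554Q cells carried CA-Keap1R554Q and received adenoviral Cre, which switches on a mutant form of KEAP1, the adaptor that marks NRF2 for degradation. Keap1 WT cells carried that allele, received empty adenovirus and are functionally wild type for Keap1. Each group had 3 libraries. Cre is present in each mutant group and absent from its control, so Cre itself and the mutant allele cannot be told apart. The labels do not say whether the 3 libraries of a group came from separate embryos, so p-values measure the spread between these libraries, which may be technical.

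Histones are the proteins around which DNA is wound. H2A, H2B, H3 and H4 form the core of the nucleosome and H1 binds the linker DNA between cores. The clustered genes are transcribed mainly during S phase, when newly copied DNA has to be packaged, and their expression falls when replication stops. Their mRNAs end, unlike those of nearly all other genes, in a short stem-loop bound by SLBP instead of a poly(A) tail, and some members also make polyadenylated forms through a downstream AATAAA signal. The counted share of these RNAs therefore depends on how RNA was selected for the libraries, which is not given in the sources used here.

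The stem-loop was searched for as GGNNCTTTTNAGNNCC in the transcripts of GENCODE M21, and 38 of the 60 members with a transcript there held it. 6 distinct stem-loops were found, and 1 member of each is shown, with the stem-loop in capitals and 5 flanking bases on each side in lower case. They are shown because the classes differ in it.
Hist1h1c (H1): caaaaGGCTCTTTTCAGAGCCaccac
Hist1h3c (H3): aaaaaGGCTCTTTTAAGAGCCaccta
Hist2h2ac (H2A): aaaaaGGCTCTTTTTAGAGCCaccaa
Hist1h4h (H4): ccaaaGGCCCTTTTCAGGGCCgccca
Hist1h4i (H4): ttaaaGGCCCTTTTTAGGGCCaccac
Hist1h4j (H4): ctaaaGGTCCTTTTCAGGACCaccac
The first form was found in 21 members, the second in 6, the fourth in 7 and the fifth in 2, while the third and the last were found in 1 member each. The last 3 forms occurred in H4 genes and the first 3 in the other classes. Many of the other transcripts end at or near the stop codon in the annotation, so a missing match is not a missing stem-loop.

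The clustered genes were a small share of the libraries. Counted reads per library ran from 14963004 to 23818477, and the members took 0.0165% to 0.0216% of them in the 6 Nrf2 libraries and 0.0313% to 0.0368% in the 6 Keap1 libraries. The ranges of the 2 cultures do not overlap. The shallowest library was Nrf2 KO replicate 3, which held 2468 member reads against 4079 to 8120 in the other 11 libraries. Nqo1, an NRF2 target that checks the labels, rose from 9.03 ± 1.77 to 121.8 ± 13.4 CPM with D29H and from 32.3 ± 0.21 to 343.6 ± 39.2 CPM with R554Q (mean ± SD, n = 3). CPM are read counts scaled to library depth with TMM factors. Nfe2l2 itself was at 54.2 ± 3.9 CPM in Nrf2 D29H and 43.6 ± 3.5 CPM in Nrf2 KO (edgeR adjusted p = 0.0712), so its reads do not show the knockout that the label names. All 10 fibroblast markers were listed, with a summed level of 20300 to 27500 CPM per library. The markers of 5 other cell types summed to at most 354.8 CPM for any list.

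Reads of the family rested on a few members. Hist1h1c, a somatic H1 gene, held 38.5% of all member reads and Hist1h2bc, an H2B gene, held 31.3%, together 69.8%. In the Nrf2 libraries Hist1h1c averaged 1754 and Hist1h2bc 918.8 reads, and in the Keap1 libraries they were close, at 2504 and 2540. Hist1h1c was ahead in the 3 Keap1 R554Q libraries and Hist1h2bc in the 3 Keap1 WT libraries by their summed reads. Per length, Hist1h2bc was the highest at a mean of 112.5 FPKM over the 12 libraries, from 46.9 to 178.7. FPKM are reads divided by the listed gene length and the library's depth. Hist1h1c followed at 65.3 FPKM (46.8 to 84.5). Hist1h2ab at 14.9 FPKM (3.99 to 31.0), Hist1h3b at 14.9 (3.80 to 28.2), Hist1h4h at 13.8 (6.30 to 26.6) and Hist1h4i at 13.1 (9.42 to 17.1) came next, and their ranges overlap. This order pools both cultures. In Nrf2 D29H and Nrf2 KO, Hist1h4i (15.05 and 13.42 FPKM) and Hist1h2ad (11.86 and 12.16) lay above Hist1h2ab (5.64 and 4.09) and Hist1h3b (5.61 and 4.98). Within H1, Hist1h1c took 96.0% of the class's reads, and Hist1h2bc took 85.0% of those of H2B. The other 3 classes were more evenly divided, with 35.6% for Hist1h2ab in H2A, 47.7% for Hist1h3b in H3 and 43.0% for Hist1h4i in H4. These shares pool both cultures, and in the Nrf2 libraries Hist1h2ad led H2A, with a mean of 121.7 reads against 48.3 for Hist1h2ab. In H4, Hist1h4h had 643 reads and Hist1h4i 530 in Keap1 R554Q. The lowest was Hist1h1t, the testis H1 gene, with 3 reads in all 12 libraries. The 21 members with AATAAA anywhere in an annotated transcript, Hist1h1c and Hist1h2bc among them, held 77.7% of member reads. Their median of 0.70 FPKM was nevertheless below the 1.22 FPKM of the 39 members with a transcript and no match. The place of AATAAA was not checked, so a match need not be the downstream signal, nor a missing match its absence.

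**Figure D1:**
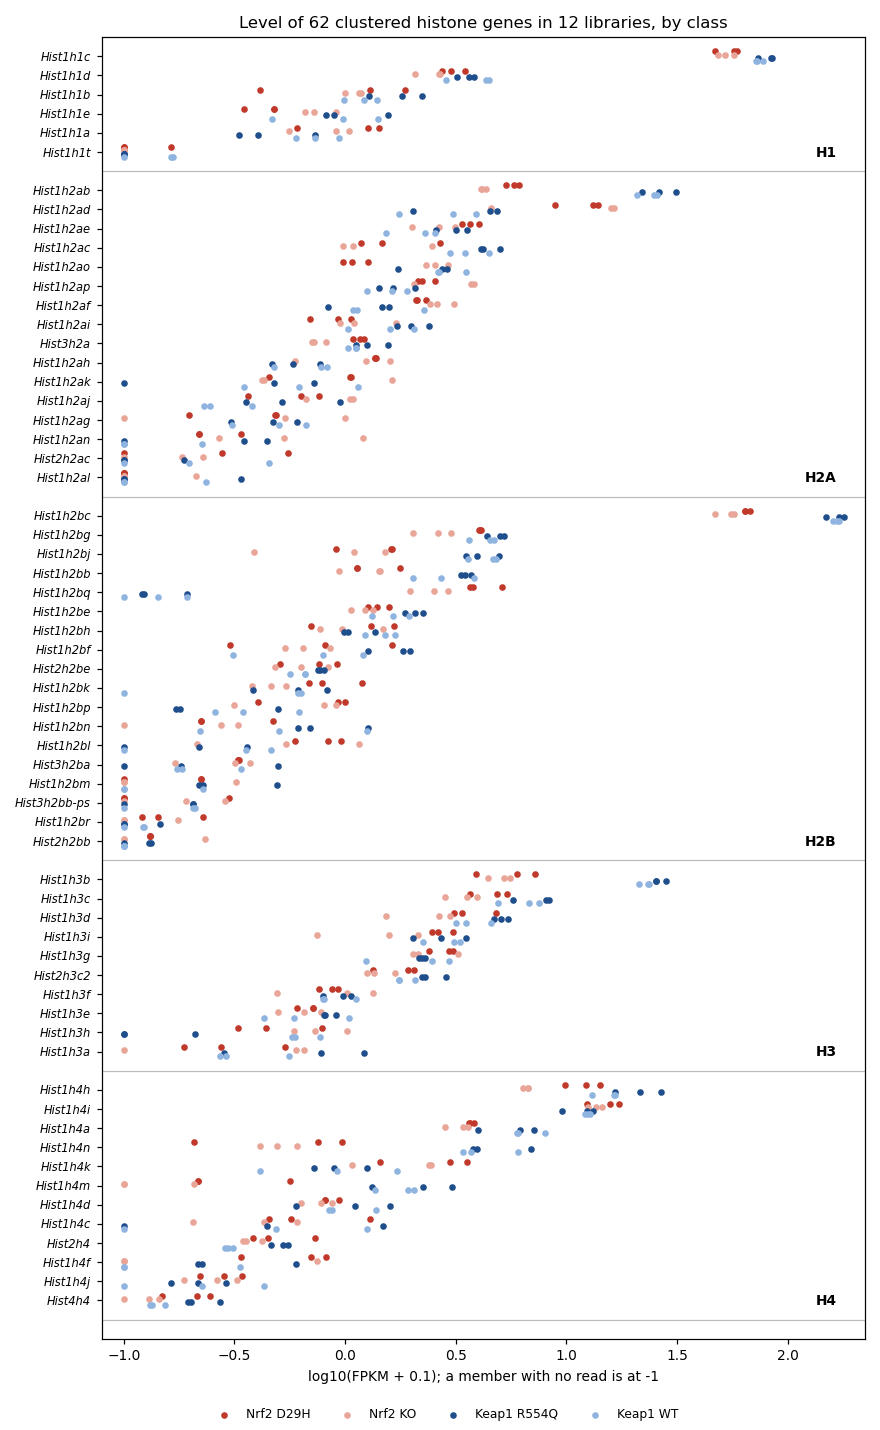
Level of each member in each of the 12 libraries as log10(FPKM + 0.1), with members in rows by class and libraries coloured by group. Hist1h2bc and Hist1h1c stand far to the right, between 46.8 and 178.7 FPKM, and 29 members in the Nrf2 libraries and 28 in the Keap1 libraries averaged under 10 reads.

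Sequence sharing limits how far single members can be read. In the median member, 49.4% of the 50-base stretches of its transcripts also occurred in transcripts of another gene, and in 28 members at least 50% did. Hist1h1a, Hist1h1b, Hist1h1t and Hist2h2be shared none. The members at or above 80% shared, 14 in number, held 3.67% of member reads, and the 13 members under 20% held 42.8%. How the counting treated reads that fit several genes is not given in the sources used here. The 4 pairs below are near-identical copies and are uncertain as single genes: Hist1h2bq with Hist1h2br, Hist1h2ao with Hist1h2ap, Hist1h4m with Hist1h4n, and Hist1h2ai with Hist1h2aj. Hist3h2a overlaps Trim17 on its own strand, and Hist1h2be overlaps Hist1h1e. In GENCODE M21, 17 members overlap another gene on the other strand, and whether counting used strand is not given, so such reads cannot be told apart.

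The first comparison asks what switching on NRF2 D29H does to the family. In Nrf2 D29H against Nrf2 KO, the H4 gene Hist1h4h and the H2B gene Hist1h2bq rose and the H2A gene Hist1h2ao fell. These 3 of 35 tested members passed the threshold (edgeR quasi-likelihood test, Benjamini-Hochberg adjusted p under 0.05), against 4.75% of all 14370 genes tested. At an unadjusted p under 0.05 there were 7 of 35, beside 22.9% of all genes. 2 of 35 were higher, beside 3.47% of all genes, and 1 was lower, beside 1.28%. The other 27 members had too few reads for the test, and since a gene can pass that filter through its higher group alone, counts over the tested members are descriptions.

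Hist1h4h had 123, 98 and 142 reads in the Nrf2 D29H libraries and 72, 71 and 47 in the Nrf2 KO libraries. Scaled for depth these were 5.75, 4.50 and 6.57 CPM against 3.16, 3.03 and 3.16 CPM, so the groups do not overlap, and the D29H libraries also varied more than the controls. The log2 fold change was 0.85 ± 0.19 (SE; adjusted p = 0.0123). It fell short in 2 of 16 alternatives, when GC content and length were corrected for (0.63, adjusted p = 0.0596) and without Nrf2 D29H replicate 3 (0.72, adjusted p = 0.135). Of its 50-base stretches, 45.8% occur in other genes.

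Hist1h2bq had 167, 161 and 227 reads in Nrf2 D29H and 91, 123 and 89 in Nrf2 KO. In CPM these were 7.81, 7.39 and 10.5 against 4.00, 5.25 and 5.99, again without overlap. The log2 fold change was 0.77 ± 0.17 (SE; adjusted p = 0.0138), and 0.60 (adjusted p = 0.153) without Nrf2 D29H replicate 3. Summed with its copy Hist1h2br, which had 0 to 6 reads in these libraries, it rose by 0.78 ± 0.17 on the log2 scale (adjusted p = 0.0127).

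Hist1h2ao, by contrast, had 10, 9 and 12 reads in Nrf2 D29H and 31, 28 and 16 in Nrf2 KO. In CPM these were 0.47, 0.41 and 0.56 against 1.36, 1.20 and 1.08, and the groups do not overlap. On the log2 scale the fitted change was -1.34 ± 0.37 (SE, with an adjusted p = 0.0358), and the call was lost in 4 of 6 fits that left out 1 library, namely Nrf2 D29H replicate 2 or 3 or Nrf2 KO replicate 1 or 2 (adjusted p = 0.0847 to 0.207). Summed with its copy Hist1h2ap, the fold change was -0.85 ± 0.25 (adjusted p = 0.0507), which missed the threshold. In the authors' deposited table, Hist1h4h and Hist1h2bq had adjusted p of 0.016 and 0.0163 and Hist1h2ao was listed without one. Hist1h2ap alone was at 1.05 ± 0.09 CPM in Nrf2 D29H and 1.51 ± 0.49 CPM in Nrf2 KO, and its groups overlap (log2 fold change -0.56 ± 0.32, adjusted p = 0.296).

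Most of the other tested members had fitted values above 0 and none passed the threshold. The fitted log2 fold change was above 0 in 30 of 35 tested members, where 50.1% of all tested genes were above 0, and the median was 0.22 beside 0.00 for all genes. Among the 16 members with a standard error under 0.3 it was above 0 in 15. The 3 libraries of each group did not overlap in 9 members that were higher in Nrf2 D29H, where 12.4% of all genes were, and in 2 that were lower, where 13% of all genes were. The 2 were Hist1h2ao and Hist1h2af, and the 9 were Hist3h2a, Hist1h3i, Hist1h2bq, Hist1h4h, Hist1h2ae, Hist1h2bg, Hist1h3d, Hist1h2bc and Hist1h2ab. Hist3h2a, whose position is shared with Trim17, gave 2.29, 2.06 and 2.36 CPM against 1.32, 1.37 and 1.55 (log2 fold change 0.68 ± 0.26, adjusted p = 0.125). Hist1h2bc gave 47.4, 48.2 and 46.4 CPM against 42.3, 41.3 and 34.7, with the lowest value in the shallow Nrf2 KO replicate 3 (0.26 ± 0.10, adjusted p = 0.133). Hist1h1c, the member with the most reads, was at 83.8 ± 11.2 CPM in Nrf2 D29H and 82.6 ± 7.0 CPM in Nrf2 KO (0.02 ± 0.11, adjusted p = 0.94), and its groups overlap. Hist1h2ad was uneven within a group. It gave 7.60, 7.43 and 2.09 CPM in Nrf2 KO, the last in the shallow replicate 3, and 6.08, 3.95 and 6.29 CPM in Nrf2 D29H.

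The second comparison asks the same of KEAP1 R554Q, a change in the adaptor of NRF2 and not in NRF2 itself. In Keap1 R554Q against Keap1 WT none of 34 tested members passed the threshold in edgeR, where 6.17% of all 14128 genes did, 3.77% higher and 2.4% lower. At an unadjusted p under 0.05 there were 3 of 34 members, Hist1h4h, Hist1h2bf and Hist2h4, beside 24.2% of all genes, and DESeq2 and limma also called 0. Hist1h4h had the smallest p of the family here too. Its reads were 205, 278 and 160 in Keap1 R554Q and 171, 125 and 151 in Keap1 WT, or 10.1, 12.3 and 7.75 CPM against 7.88, 6.20 and 7.86 CPM, and the groups overlap because R554Q replicate 3 lies below 2 of the controls. The log2 fold change was 0.46 ± 0.16 (SE; adjusted p = 0.0935). It was 0.62 (adjusted p = 0.00172) without that library and 0.45 (adjusted p = 0.0239) with no filter on low counts, the 2 alternatives of 16 that made a call.

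In the same comparison, 6 members did not overlap and were higher in Keap1 R554Q, beside 14% of all genes, and 0 of 34 were lower without overlap, beside 13.5%. The 6 were Hist1h2bf, Hist1h3d, Hist1h3b, Hist2h2be, Hist2h3c2 and Hist2h4. Hist1h3b, the leading H3 gene, gave 17.3, 15.3 and 15.6 CPM against 13.2, 14.6 and 15.0 (log2 fold change 0.17 ± 0.11, adjusted p = 0.35). Hist2h4 had 14, 13 and 15 reads against 7, 7 and 6 (1.00 ± 0.41, adjusted p = 0.142). Hist1h2bc was at 120.6 ± 10.6 CPM in Keap1 R554Q and 123.8 ± 3.4 CPM in Keap1 WT and overlapped. Hist1h1c was at 124.1 ± 8.9 and 116.8 ± 5.9 CPM and overlapped as well. The median over tested members was 0.17 beside -0.000989 for all genes, and 25 of 34 were above 0, beside 49.9%. Both within-allele comparisons tested 29 of the members and share no library. Of these 29, 17 had a fitted value above 0 in both, beside 31.5% of the genes tested in both, 2 were below 0 in both, beside 32.6%, and 10 had opposite signs, beside 35.9%.

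**Figure D2:**
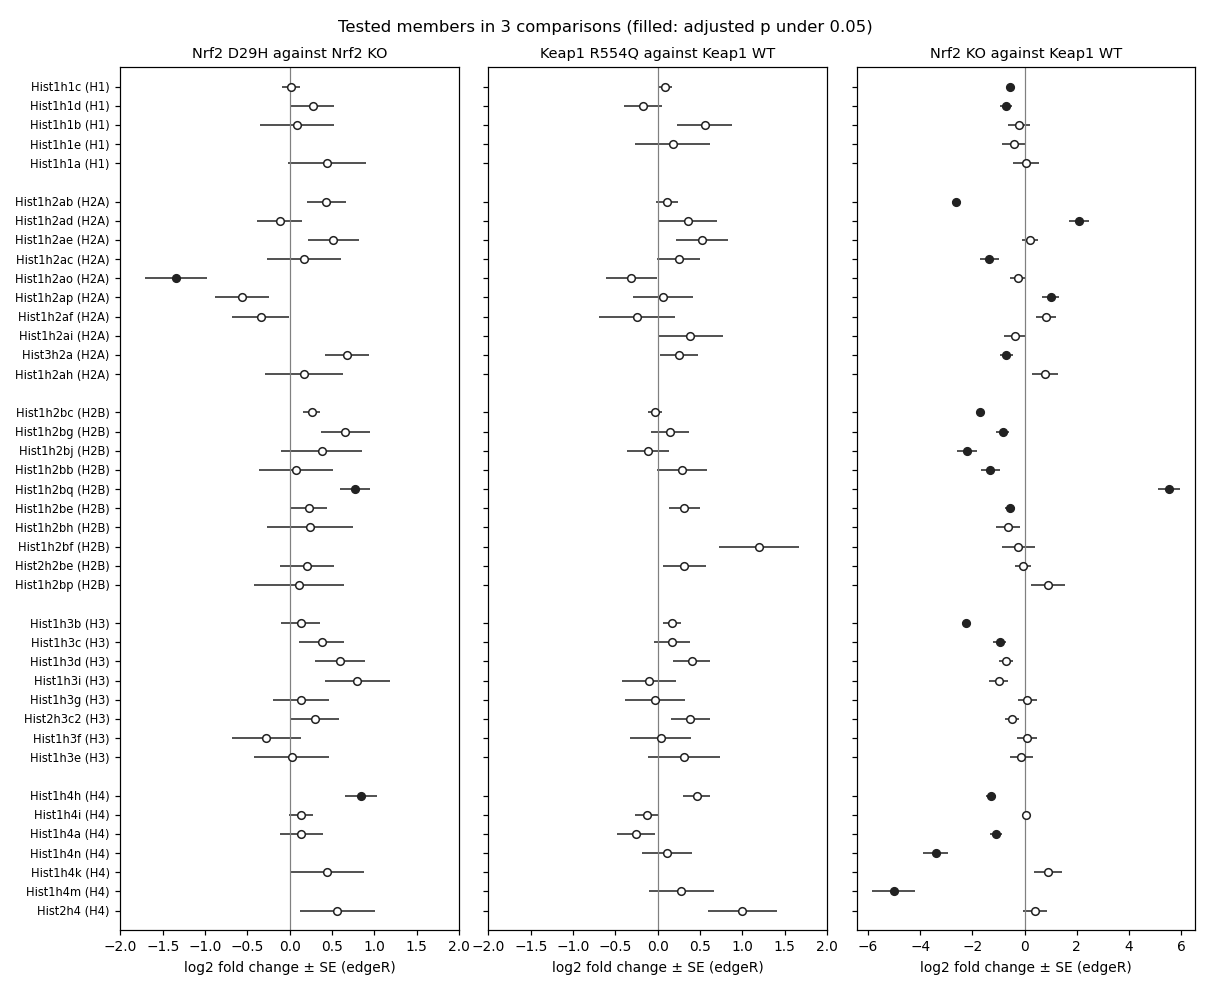
Log2 fold change with its standard error for the 40 members tested in at least 1 comparison, in rows by class, with 1 panel per comparison and a wider axis in the last. Filled points passed the adjusted threshold: 3 in the first panel, 0 in the second and 19 in the third, where most lie left of 0.

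The difference between the D29H and R554Q effects was tested directly in 1 fit of the 12 libraries. None of 40 tested members differed, where 4 of 14794 genes (0.027%) did, 0.00676% with a higher and 0.0203% with a lower value for D29H. At an unadjusted p under 0.05 there were 2 of 40, Hist1h2bc and Hist1h2ao, beside 11.3% of all genes, and 21 of 40 were above 0, beside 50.9%. DESeq2 and limma also called 0. The smallest adjusted p was that of Hist1h2bc, whose 2 effects differed by 0.30 ± 0.13 on the log2 scale (adjusted p = 0.388). For Hist1h4h the difference was 0.40 ± 0.25 (adjusted p = 0.57), so its call with D29H and not with R554Q does not show a difference between the alleles. For Hist1h2ao it was -1.02 ± 0.46 (adjusted p = 0.415).

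By class, the summed levels of H2B and H4 lay above their controls with D29H and those of H3 with R554Q. Reads of all members of a class were summed in each library, which keeps reads exchanged between near-identical copies inside the sum, and no test was made on the sums. H2B sums were 65.4, 66.1 and 66.5 CPM in Nrf2 D29H against 54.6, 53.8 and 49.5 in Nrf2 KO, a log2 ratio of 0.33, and the groups do not overlap. H4 sums were 20.9, 18.3 and 24.8 against 16.7, 16.2 and 16.96 CPM, a ratio of 0.36 on the log2 scale, also without overlap. The H1, H2A and H3 sums of these groups overlap, with log2 ratios of 0.02, 0.00 and 0.27. With R554Q, H3 sums were 30.5, 27.2 and 27.5 CPM against 23.6, 24.8 and 26.4 in Keap1 WT, a log2 ratio of 0.19 without overlap. H1, H2A, H2B and H4 overlap there, at 0.08, 0.14, -0.01 and 0.13. The H4 sums were 29.3, 29.2 and 20.5 CPM in Keap1 R554Q against 25.7, 22.6 and 23.8. For H2A they were 22.7, 27.3 and 21.4 against 22.3, 20.3 and 22.3 CPM, so both ratios lean on single libraries. Without Hist1h2bc the H2B ratio was 0.51 with D29H and 0.21 with R554Q, and without Hist1h4i the H4 ratio with D29H was 0.64. The called members Hist1h2bq (8.57 against 5.08 CPM) and Hist1h4h (5.61 against 3.12 CPM) are part of the D29H sums of H2B and H4. Sums without them were not made, so a rise across each class is not shown. Of all genes taken singly, 12.4% with D29H and 14% with R554Q lay higher without overlap. Summed markers of other cell types also lay apart within these comparisons, and their part in the class sums was not tested. With D29H the epithelial list was at 34.3 to 52.4 CPM against 59.1 to 75.2 and the muscle list at 103.5 to 129.4 against 133.2 to 144.7. The neural list was at 197.9 to 211.9 against 213 to 234.9 CPM there, and the fibroblast list itself at 23620 to 24480 against 25610 to 27500. Macrophage and endothelial lists overlapped with D29H. With R554Q the macrophage list was at 74.8 to 87.3 CPM against 99.6 to 112.8, the epithelial list at 45.3 to 53.6 against 56.98 to 65.4 and the muscle list at 278.3 to 317.2 against 320.9 to 354.8. In bulk RNA, a different share of cells in S phase and a different amount of histone RNA per cell cannot be told apart.

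**Figure D3:**
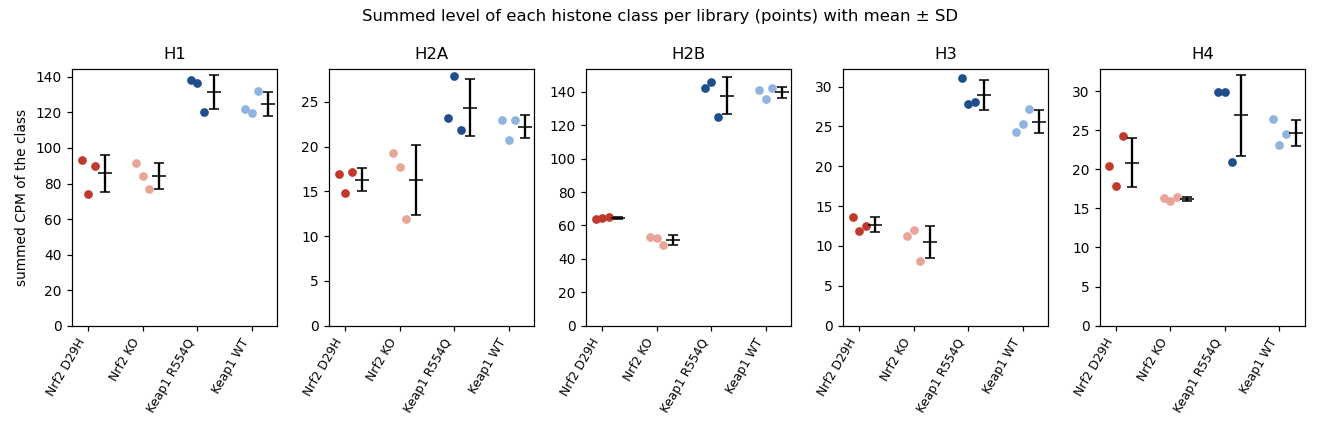
Summed level of each histone class in CPM, scaled over all 12 libraries, with 1 point per library and the mean ± SD of each group, each axis starting at 0. All 5 classes lie higher in the Keap1 controls than in the Nrf2 controls, and in the Nrf2 cells the H2B and H4 points of D29H lie above those of KO.

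More members passed the threshold between the 2 cultures than with either mutation, and most of these were lower in the Nrf2 cells. Both control groups received empty virus, but the Nrf2 KO and Keap1 WT cells differ in allele, culture, table and any batch, which cannot be told apart. In Nrf2 KO against Keap1 WT, 19 of 40 tested members passed the threshold, where 19.7% of all 14794 genes did. 16 of 40 were lower in Nrf2 KO, beside 10.1% of all genes, and 3 were higher, beside 9.58%. The median log2 fold change was -0.44 beside -0.01 for all genes, and 13 of 40 were above 0, beside 48.6%. The 3 libraries of each control group did not overlap in 24 of 40 members, beside 37% of all genes, 19 lower (beside 19.1%) and 5 higher (beside 17.9%). Some members were tested only because 1 culture expressed them. Of the 29 that passed the filter in both tables, 16 were called, beside 20.1% of all genes tested in both. All 6 libraries of one culture lay apart from all 6 of the other in 11 of 40 members, 10 of them lower in the Nrf2 cells (beside 6.85% of all genes) and 1 higher (beside 6.44%). The skeletal muscle markers, summed within each table, were at 103.5 to 144.7 CPM in the Nrf2 libraries and 278.3 to 354.8 CPM in the Keap1 libraries, and the macrophage markers at 150.9 to 197.5 and 74.8 to 112.8 CPM. All 6 muscle markers were listed in the Nrf2 table, with Pax7 at 0 in Nrf2 D29H and Myh3 and Myod1 at 0 in Nrf2 KO, and 4 in the Keap1 table, without Myod1 and Pax7. Of 10 macrophage markers 9 were listed in each table, and none of these was at 0 in a group. The part of these cells in the histone differences was not tested.

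Among the H2A genes, Hist1h2ab was at 1.89, 1.88 and 1.96 CPM in Nrf2 KO and 12.1, 10.2 and 12.8 CPM in Keap1 WT, on the scale of the 12 libraries. The fitted difference was -2.61 ± 0.17 on the log2 scale (SE; adjusted p = 1.35e-10), and with Cre the levels were 2.58 ± 0.20 CPM in Nrf2 D29H and 12.53 ± 2.1 CPM in Keap1 R554Q. Hist1h2ac was lower too (-1.36 ± 0.37, adjusted p = 0.0108), and Hist1h2ad ran the other way at 5.58 ± 3.08 against 1.35 ± 0.51 CPM (2.08 ± 0.38, adjusted p = 0.000337). Hist3h2a was lower by a smaller step (-0.70 ± 0.23, adjusted p = 0.0376), a call kept in 12 of 20 alternatives. Hist1h2ap was higher (1.00 ± 0.33, adjusted p = 0.034), but not when summed with Hist1h2ao (0.31 ± 0.24, adjusted p = 0.402).

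Among the H2B genes, Hist1h2bc gave 41.3, 40.6 and 33.7 CPM in Nrf2 KO and 129.5, 122.4 and 129.1 CPM in Keap1 WT, with no overlap (-1.72 ± 0.09, adjusted p = 6.21e-12). The H2B sum, of which it is the largest part, was 51.4 ± 2.9 against 139.6 ± 3.5 CPM, a log2 ratio of -1.44. Hist1h2bj (-2.20), Hist1h2bb (-1.31), Hist1h2bg (-0.85) and Hist1h2be (-0.56) were lower as well, with adjusted p from 0.000149 to 0.0465. The call of Hist1h2be was kept in 8 of 21 alternatives and that of Hist1h2bg in 17 of 20. Hist1h2bq was the exception, at 3.903, 5.15 and 5.82 CPM in Nrf2 KO and 0.09, 0.20 and 0 in Keap1 WT, with 303 reads against 6 in all, a depth-scaled ratio of 50.6 (exact 95% counting interval 22.97 to 138.9). It entered the test through the Nrf2 libraries alone and so had to differ.

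Among the H3 genes, Hist1h3b gave 3.35, 3.18 and 2.61 CPM in Nrf2 KO and 13.5, 14.9 and 15.4 CPM in Keap1 WT (-2.24 ± 0.17, adjusted p = 1.72e-09), and Hist1h3c was lower by less (-0.95 ± 0.24, adjusted p = 0.00739). The H3 sum was 10.5 ± 2.0 against 25.6 ± 1.5 CPM. Among the H4 genes, Hist1h4h was at 3.04 ± 0.06 against 7.51 ± 1.02 CPM (-1.30 ± 0.19, adjusted p = 2.44e-05) and Hist1h4a was lower too (-1.11 ± 0.23, adjusted p = 0.00137). Hist1h4i, with the most reads of the class, was at 9.63 ± 0.59 against 9.36 ± 0.25 CPM and its groups overlap (0.04 ± 0.14, adjusted p = 0.894). Among the H1 genes, Hist1h1c was at 80.7 ± 7.1 against 119.8 ± 6.4 CPM (-0.57 ± 0.10, adjusted p = 0.000233) and Hist1h1d was lower (-0.72 ± 0.23, adjusted p = 0.0297), a call kept in 14 of 20 alternatives.

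A contrast between the cultures lay in 6 neighbouring genes that form an inverted duplication. They run along chromosome 13 in the order Hist1h2bq (chr13:21806412-21810199, minus strand), Hist1h2ao (chr13:21810465-21810944, plus), Hist1h4m (chr13:21811746-21812147, plus), Hist1h4n (chr13:21831767-21832196, minus), Hist1h2ap (chr13:21833026-21833507, minus) and Hist1h2br (chr13:21833743-21837530, plus), in GRCm38 coordinates. Hist1h2bq was present in all 6 Nrf2 libraries at 89 to 227 reads and nearly absent from all 6 Keap1 libraries at 0 to 4 reads. The H4 pair ran in the opposite direction. Hist1h4n had 1 to 8 reads in the Nrf2 libraries and 28 to 59 in the Keap1 libraries. Hist1h4m had 1 read in the 3 Nrf2 KO libraries together and 42 in the 3 Keap1 WT libraries, a depth-scaled ratio of 41.9 with an exact 95% counting interval of 7.13 to 1695. With Cre it had 6 reads in Nrf2 D29H and 53 in Keap1 R554Q, a ratio of 9.02 (3.88 to 25.7). The H2A pair between them differed little, at 30 to 71 summed reads in Nrf2 libraries and 29 to 55 in Keap1 libraries. Summed over both copies, the H2B pair had 89 to 229 reads in the Nrf2 libraries and 1 to 6 in the Keap1 libraries, and the H4 pair had 2 to 12 and 38 to 83. The H2B pair and the H4 pair each passed the low-count filter through 1 culture only, so their values are a description.

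**Figure D4:**
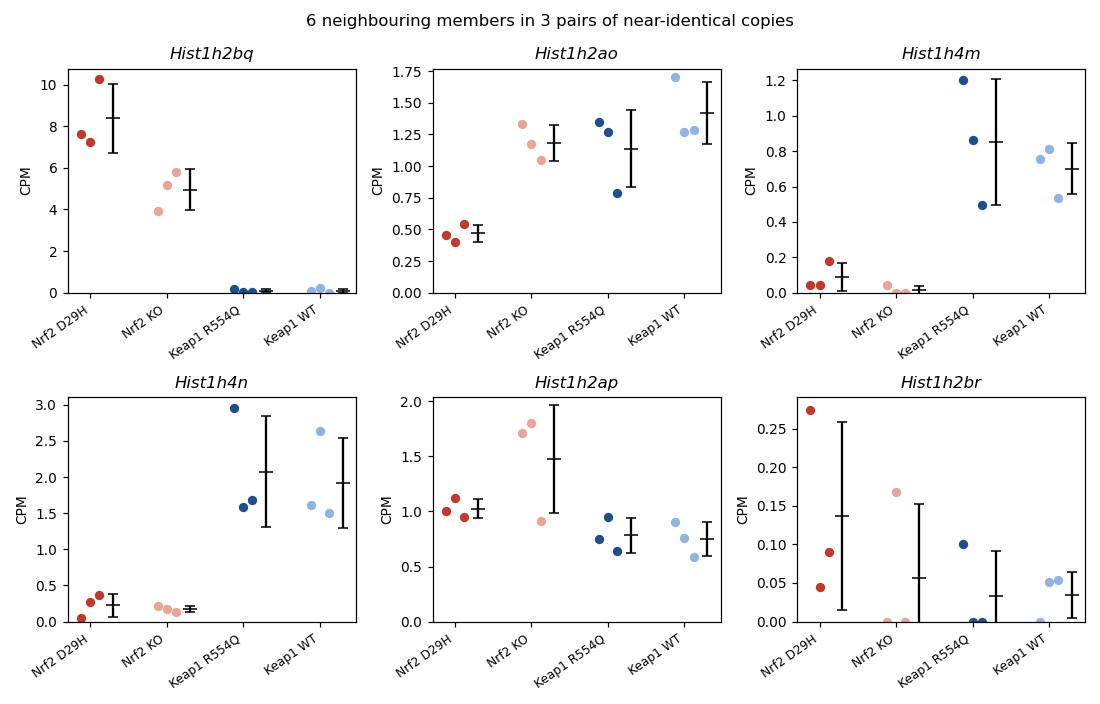
CPM of the 6 members of the inverted duplication in every library, scaled over the 12 libraries, with 1 point per library, the mean ± SD of each group, and a separate axis from 0 for each gene. Hist1h2bq is seen in the Nrf2 cells, Hist1h4m and Hist1h4n in the Keap1 cells and Hist1h2ao in all 4 groups with its lowest values in Nrf2 D29H.

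The pair that moved in opposite directions with D29H, Hist1h2bq and Hist1h2ao, stood head to head with 265 bases between them (chr13:21810200-21810464), an arrangement in which an H2A and an H2B gene share a promoter region. The RefSeq promoter window of Hist1h2bq (GRCm38.p6, chr13:21810150-21810449, minus strand), which covers most of that gap, is shown because it lies between them, with CCAAT or its reverse complement ATTGG in capitals.
Hist1h2bq: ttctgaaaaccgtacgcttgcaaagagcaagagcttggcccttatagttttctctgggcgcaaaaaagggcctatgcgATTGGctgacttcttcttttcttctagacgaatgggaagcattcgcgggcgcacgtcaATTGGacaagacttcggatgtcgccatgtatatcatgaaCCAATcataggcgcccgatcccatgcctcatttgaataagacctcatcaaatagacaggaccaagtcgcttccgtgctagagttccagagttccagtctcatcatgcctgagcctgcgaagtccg
The window of Hist1h2br holds all 281 of its 20-base stretches, yet Hist1h2br had 17 reads in the 12 libraries and Hist1h2bq 870. Of the 50-base stretches of the Hist1h2bq transcripts, 97.3% occur in Hist1h2br, so which copy a read was given to cannot be told from the counts alone. Of 13 head-to-head pairs of members within 1000 bases, the Hist1h2bq and Hist1h2ao pair was the only one with a called member in the D29H comparison. Between the cultures, the partners Hist1h2ac and Hist1h2bc were both lower in Nrf2 KO (-1.36 and -1.72). In 3 other pairs with both partners tested, 1 was called, namely Hist1h2bg (-0.85) beside Hist1h2ae (0.20), Hist1h2ad (2.08) beside Hist1h2bf (-0.24), and Hist1h2bq beside Hist1h2ao (-0.25). Hist3h2a, Hist1h2bj and Hist1h2ap were called beside partners in no test.

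Promoter windows of the members shared more than their head-to-head starts. RefSeq windows of 300 bases were matched for 54 members (55 windows), and CCAAT was searched on both strands, as were the TATA box as TATAAA and the octamer as ATTTGCAT. CCAAT was in 85.5% of the members' windows beside 37.4% of all 32851 windows, TATAAA in 56.4% beside 13.6%, and ATTTGCAT in 21.8% beside 1.74%. The classes differed. Every H1, H2A, H2B and H3 window held CCAAT and 3 of 11 H4 windows did. ATTTGCAT was in 6 of 14 H2A and 6 of 16 H2B windows and in none of the H1, H3 and H4 windows. Among the H2A genes, Hist1h2ab, Hist1h2ac, Hist1h2ae, Hist1h2ah and Hist2h2ac held all 3. Of these, Hist1h2ae (0.20, edgeR adjusted p = 0.707) and Hist1h2ah (0.79, adjusted p = 0.298) were not called between the cultures. Hist2h2ac was in no test. Hist1h2ab was picked as the H2A gene with the clearest difference between the cultures. Its window is shown with the 3 in capitals (GRCm38.p6, chr13:23750838-23751137, plus strand).
Hist1h2ab: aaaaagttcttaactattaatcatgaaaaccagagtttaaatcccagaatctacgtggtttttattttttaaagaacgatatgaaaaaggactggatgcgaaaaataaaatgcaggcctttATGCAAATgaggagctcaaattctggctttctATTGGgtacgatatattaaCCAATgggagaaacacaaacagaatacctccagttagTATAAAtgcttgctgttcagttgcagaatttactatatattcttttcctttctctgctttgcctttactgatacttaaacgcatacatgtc
The window of Hist1h4h, the only member called with D29H that has no near-identical copy, held none of the 3.

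Genes around histone supply were counted from lists. With D29H, genes of the DNA replication list were called lower. Of its 32 tested genes, 10 were lower (beside 1.28% of all genes) and 0 higher (beside 3.47%) at the adjusted threshold, and the median was -0.21. The same shares of all genes apply to the other lists in this comparison. The lists were chosen with earlier results of these data known. The 4 with the smallest p were Ccne1, the cyclin that starts S phase (69.1 ± 6.1 to 49.2 ± 3.2 CPM, log2 fold change -0.49 ± 0.10, adjusted p = 0.0083), and the replicative helicase subunits Mcm2 (-0.45, adjusted p = 0.0147), Mcm3 (-0.46, adjusted p = 0.015) and Mcm6 (-0.45, adjusted p = 0.0204). No gene of the list was called without Nrf2 D29H replicate 2 or without replicate 3, and 4 and 5 were called without Nrf2 KO replicate 2 or 3, while the median stayed between -0.28 and -0.18. Of 20 mitosis genes, Top2a and Aurka were lower and the median was -0.30. That count was 0 without Nrf2 D29H replicate 2 or 3 or Nrf2 KO replicate 3, 1 without Nrf2 KO replicate 2, 11 without Nrf2 D29H replicate 1, 8 without Nrf2 KO replicate 1, 8 with no filter and 5 in DESeq2. For every list, the share of all genes called in each alternative fit is not given here. Whether a count moved with the total of calls in that fit cannot be told. Of 19 genes of histone transcription and 3′ processing, Cpsf2, a cleavage factor subunit, was lower (73.8 ± 9.2 to 54.7 ± 6.8 CPM, -0.43 ± 0.11, adjusted p = 0.0265), a call kept in 3 of 6 fits that left out 1 library and lost without Nrf2 D29H replicate 2 or 3 or Nrf2 KO replicate 3. The list's count was 4 without Nrf2 D29H replicate 1, 3 without Nrf2 KO replicate 1 and 3 with no filter. Slbp, which binds the stem-loop, was at 43.2, 34.5 and 40.1 CPM in Nrf2 D29H and 45.4, 48.1 and 54.8 CPM in Nrf2 KO, without overlap (-0.33 ± 0.11, adjusted p = 0.0723). Npat, the coactivator of the clustered genes, overlapped between groups (-0.04 ± 0.12, adjusted p = 0.883). None of 12 replication-independent histones and none of 21 chaperones and deposition factors was called in edgeR, and of 7 cyclin-dependent kinase inhibitors Cdkn1c was lower (-0.38, adjusted p = 0.0483). That call was lost with upper-quartile scaling, in limma, with a mean count of at least 50, and without Nrf2 D29H replicate 2 or 3 or Nrf2 KO replicate 2 or 3. Of the replication-independent histones 4 of 12, and of the chaperones 10 of 21, had an unadjusted p under 0.05, beside 22.9% of all genes. For these lists in the same order, DESeq2 called 0 and 1, and edgeR called 1 and 2 with no filter, 2 and 6 without Nrf2 D29H replicate 1, and 1 and 2 without Nrf2 KO replicate 1.

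With R554Q the same lists were counted, beside 3.77% higher and 2.4% lower over all genes in the main fit. Shares over all genes in the alternative fits are again not given. Of 32 DNA replication genes, Ccne2 (-0.44, adjusted p = 0.00974) and Tyms (-0.38, adjusted p = 0.0118) were lower, with a median of -0.10, and of 20 mitosis genes Cdk1 was lower (-0.34, adjusted p = 0.0201). The Cdk1 call was lost with the replicate block and kept in 1 of 6 fits that left out 1 library, the one without Keap1 R554Q replicate 3, where 6 mitosis genes were called. The Ccne2 call was lost with GC and length offsets. The count for DNA replication was 0 without Keap1 WT replicate 2, 1 without Keap1 R554Q replicate 1 and 5 without replicate 3. Its median ran from -0.14 without Keap1 WT replicate 3 to -0.044 without Keap1 R554Q replicate 2. The kinase inhibitors Cdkn2a (140.8 ± 17.6 to 191.1 ± 17.7 CPM, 0.44 ± 0.10, adjusted p = 0.0121) and Cdkn2b (0.40 ± 0.08, adjusted p = 0.00989), which restrain entry into S phase, were higher. Each was kept in 4 of 6 fits that left out 1 library and lost without Keap1 R554Q replicate 1, and also without Keap1 WT replicate 2 (Cdkn2a) or 1 (Cdkn2b). Sympk, a scaffold of the 3′ processing machinery, was higher (0.30 ± 0.08, adjusted p = 0.0268), but not with GC and length offsets, with the replicate block or in 5 of 6 fits that left out 1 library, while 3 genes of its list were called without Keap1 R554Q replicate 3. Slbp was at 35.8 ± 2.2 against 40.3 ± 1.2 CPM (-0.17 ± 0.08, adjusted p = 0.221). None of the 12 replication-independent histones and 21 chaperones was called in edgeR, where 0 and 5 had an unadjusted p under 0.05, beside 24.2% of all genes. DESeq2 called 0 and 1, edgeR 1 and 5 without Keap1 R554Q replicate 3, and 1 chaperone was called with no filter or with a mean count of at least 50. Of the replication-independent histone genes, H2afz, H3f3a, H3f3b and H1f0 supply histones also outside S phase and make polyadenylated mRNA. H2afz was at 388.7 ± 70.5 and 397.1 ± 9.0 CPM, H3f3b at 351.9 ± 13.7 and 377.4 ± 11.3, and H1f0 at 120.4 ± 4.5 and 129.1 ± 6.8 CPM in Keap1 R554Q and Keap1 WT. With D29H, H1f0 was at 205.3, 145.3 and 189.7 CPM against 223.2, 227.9 and 226.3, without overlap (-0.33 ± 0.12, adjusted p = 0.0989), and H3f3a at 101.5, 96.9 and 125.3 against 87.0, 84.1 and 94.3, also without overlap (0.29 ± 0.11, adjusted p = 0.114). With D29H the log2 fold changes of H2afx, H3f3b and H2afz were -0.15 (adjusted p = 0.388), -0.12 (adjusted p = 0.557) and 0.06 (adjusted p = 0.795).

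**Figure D5:**
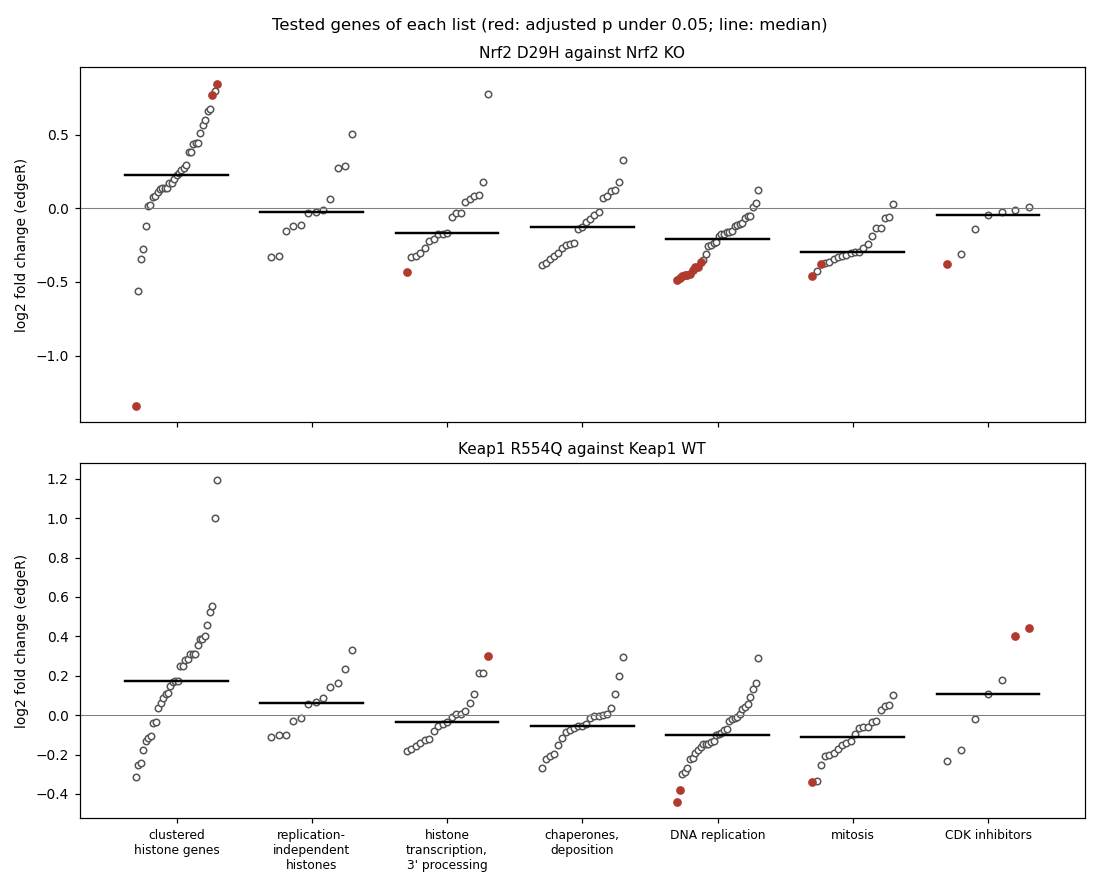
Log2 fold changes of the tested clustered histone genes and of 6 lists of genes around histone supply, with 1 point per gene, red where the adjusted threshold was passed and a line at the median, in 1 panel per mutation. In the upper panel the clustered genes have a median of 0.22 and the DNA replication genes one of -0.21.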

How the data were processed

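Per the file headers, each of the 2 tables (1 per allele) holds the authors' unnormalized counts of reads for each gene. The authors also deposited FPKM, group means of scaled counts (a signal per group), log2 fold changes, and p-values, per the file headers. FPKM were used for levels, counts for all tests. The submitters' processing notes name mm10, STAR and DESeq2; counting tool, annotation and strand are not given in the sources used here. Counts were fitted on whole tables with edgeR 4.0.16 (filterByExpr, TMM, quasi-likelihood test) in R 4.3.3, and p-values were adjusted over all genes tested. The difference between effects and the comparison of controls came from 1 fit of 12 libraries. Alternatives used DESeq2 1.42.0 and limma 3.58.1. The fits were tested on simulated counts. Shared sequence was read from GENCODE M21 transcripts, and promoters from RefSeq (GRCm38.p6). In M21, 60 of the 62 identifiers were found, 39 with the same start and end.

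Members, lists and tests were chosen with earlier results of these data known. Named members were those called in any comparison, the 3 with the highest FPKM per class, and, among members with a mean of at least 20 counts, the 3 highest and 3 lowest fold changes in each within-allele comparison; members without overlap were named after their values were seen. Named genes of the lists were the called ones, up to 4 per list by p, and Slbp, Npat, H2afz, H2afx, H3f3a, H3f3b and H1f0.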

Additional observations from a re-analysis of the deposited data

How the results depend on the processing

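The count of members called with D29H was 2 or 3 under each scaling, filter, tool, offset, 12-library and copy-summed alternative and 0 to 3 when a library was left out (0 without Nrf2 D29H replicate 3). With R554Q it was 1 with no filter on low counts, 0 or 1 with a library left out (1 without Keap1 R554Q replicate 3) and 0 otherwise. The difference between the effects gave 0 under all alternatives. Nrf2 KO against Keap1 WT gave 17 to 21, except 10 of 11 with a mean count of at least 50, where fewer were tested, and 12 to 19 with a library left out (12 without Keap1 WT replicate 3, the cause not tested). Of its 19 calls, Hist1h2be was the least stable, kept in 8 of 21 alternatives. Genes of the supply lists numbered 20, 35 with no filter, and 6 to 42 with a library left out, and the cause was not tested. For members and lists alike, the share of all genes called in each alternative is not given here. Whether these counts moved with the total of calls cannot be told.

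Class ratios without the member with the most reads were 0.51 for H2B and 0.64 for H4 with D29H, and -0.017 for H1 and 0.21 for H2B with R554Q. Left out in the same way, the leading member also changed other ratios. Those of H1 with D29H and H4 with R554Q rose, and that of H2A with D29H turned negative. Signs changed in uncalled members: Hist1h1c with D29H ran from -0.057 to 0.13 and Hist1h2ad from -0.46 to 0.12 with a library left out, Hist1h2ad was 0.11 in limma, and Hist1h1d with R554Q was 0.067 with GC and length offsets. The share that joined copies for summing was set at 0.8 after the data were seen. Samples with the same replicate number did not deviate together (r from -0.22 to 0.04). With a replicate block the counts of members called were 3, 0, 0 and 17, and 19 for the lists. Among the Cre libraries, only Keap1 R554Q replicate 1 correlated best with the control of its own number (r = 0.04). Depth limits the low members: 22 were in no test, with 3 to 83 reads over 12 libraries.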
